A study of Mus musculus with 2 samples.

Results

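The 61 cells described here are venous endothelial cells of the aged mouse hippocampus, 16 from a control library and 45 from a tomatidine library. They were selected on measured values. A cell with 500 or more UMIs (unique molecular identifiers, each 1 counted RNA molecule) was taken as endothelial when Cldn5, Flt1, Pecam1 and Cdh5 summed to at least 5 UMIs, to at least 15 per 10000 UMIs of the cell, and to 3 or more times the sum of Mog, Aqp4, Csf1r, Slc17a7, Pdgfrb and Col1a1, genes of other brain cells. Of the 453 endothelial cells, those with at least 2 UMIs of Vwf, Slc38a5, Vcam1 and Lrg1 together, a sum no lower than the arterial sum (Gkn3, Bmx, Sema3g, Hey1) and no lower than the capillary sum (Mfsd2a, Rgcc, Slc16a1, Spock2), were called venous. For comparison, 359 capillary and 24 arterial cells had the strictly highest sum of their own class with 2 or more UMIs, and 9 cells fell in no class. All of them come from 31097 deposited cells.

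The study fed C57BL/6 mice of both sexes, 21 months old at the start, for 3 months with a diet that held 0.05% tomatidine, a steroidal alkaloid of the tomato plant, or with standard chow. One library was made per diet, each from the hippocampi of 4 mice mixed together, with a probe-based single-cell assay of fixed cells that counts RNA from 19059 genes. The mice cannot be told apart within a library, so there was no replicate, no test was possible, and every interval given is a 95% interval that covers counting error only. The 2 libraries shared 292 cell barcodes, none of them among the endothelial cells.

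Blood leaves the brain capillaries through venules, whose endothelium keeps the blood-brain barrier but is also where white blood cells attach and enter. Venous endothelium stores von Willebrand factor (Vwf), the clotting and platelet-binding protein, and displays adhesion molecules such as VCAM1 and ICAM1 together with the chemokine-binding receptor ACKR1. COUP-TFII, encoded by Nr2f2, is the transcription factor known for maintaining venous identity, and brain venules are known to respond strongly to interleukin-1 and other inflammatory signals.

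The venous cells were shallow, and 1 cell dominated the control sums. Control venous cells held 172297 UMIs in all, with a median of 3972 per cell and a range of 984 to 70479, whereas tomatidine venous cells held 191778, with a median of 3045 and a range of 1396 to 19406. The deepest control cell alone held 40.9% of the control venous UMIs, with 9669 genes detected, and carried RNA of other cells, including 334 of the 435 UMIs of the fibroblast list, 277 of the 432 of the mural list and 129 of the 165 of the microglia and macrophage list. The deepest tomatidine cell held 10.1% of its group's UMIs and 273 of 445 fibroblast-list UMIs. In depth only the control cell stood apart, since the next control cell held 26917 UMIs and the next tomatidine cell 18177. The main values that rest on these 2 cells are given with and without them. Capillary cells were deeper, with medians of 9011.5 UMIs in control and 7519 in tomatidine.

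The genes that chose the cells gave the following levels, which are a description and not a result. Vwf was found in 14 of 16 control and 45 of 45 tomatidine venous cells, with 223 and 354 UMIs. Slc38a5, a glutamine transporter of brain vessels, was found in 11 and 38 cells, Vcam1 in 15 and 37, and Lrg1, a secreted glycoprotein that acts on TGF-beta signalling, in 12 and 34. Lrg1 separated the classes most sharply, with 169 and 172 UMIs in venous cells against 1 and 19 in the far more numerous capillary cells. All 61 cells held Cldn5, the main claudin of brain endothelial tight junctions. In 34 cells all 4 venous genes were detected, in 18 cells 3 of them, in 7 cells 2 and in 2 cells only 1.

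The venous sum ranged from 2 to 324 UMIs with a median of 19. Just inside the limits lay 2 cells with a sum of exactly 2 UMIs and 6 cells whose venous sum was tied with another class. Just outside lay 1 tomatidine cell whose venous sum was 1 below its larger other sum, and no cell with 1 venous UMI that would otherwise have passed. Venous RNA was not confined to the chosen cells, since 105 control and 135 tomatidine endothelial cells had 2 or more venous UMIs but a higher capillary or arterial sum.

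**Figure D1:**
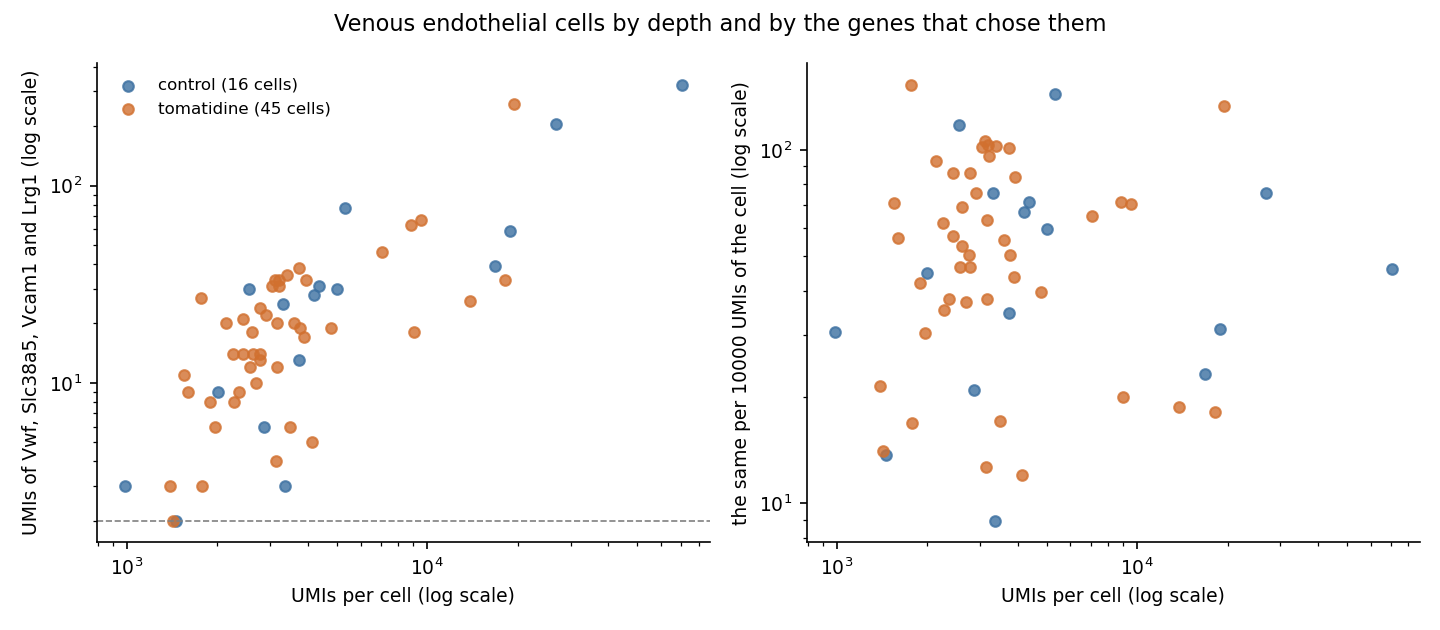
Each point is 1 of the 61 venous cells, placed by its total UMIs (horizontal axis, log scale) and by its UMIs of the 4 venous genes (left) or the same per 10000 UMIs of the cell (right, both log scales), in blue for control and orange for tomatidine. The dashed line marks the minimum of 2 UMIs, and the deepest control cell stands at the far right with 70479 UMIs, of which 324 were of the venous genes.

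Genes known from venous endothelium that had no part in the selection were also high in these cells. Ackr1 was detected in 7 of 16 control venous cells (43.8%, exact interval 19.8 to 70.1%) and in 21 of 45 tomatidine venous cells (46.7%, 31.7 to 62.1%). With every cell thinned to 1500 UMIs, the shares were 40.2% and 36.9% in venous cells (14 and 43 cells deep enough) and 1.43% and 2.97% in capillary cells. Oligodendrocytes, which should lack the receptor and were taken to show the level of free RNA, had thinned shares of 3.21% and 3.80% at medians of 5765 and 5379 UMIs, so the capillary shares lay at or below background. Icam1, the ligand for leukocyte integrins, was detected in 11 and 22 venous cells, and 20 cells held both genes, 13 only Icam1, 8 only Ackr1 and 20 neither. Thinned shares for Icam1 were 40.1% and 35.8% in venous, 3.97% and 6.96% in capillary, and 0.349% and 0.343% in oligodendrocytes. Nr2f2 had thinned shares of 35.6% and 45.1% in venous against 8.45% and 11.2% in capillary cells, with 1.67% and 1.89% in oligodendrocytes, but arterial cells, at 360 and 272 CPM, were as far above capillary cells as venous cells, at 238 and 375 CPM, and the counting intervals of both classes overlapped. The arterial class also carried much smooth muscle RNA, with Acta2 at 5473 and 3786 CPM, found in 2 of 4 and 10 of 20 cells. RNA of lymphatic vessels was near 0, with Lyve1 at 0 UMIs in both libraries, Ccl21a at 0 in control, and 15 and 9 UMIs over the 4 lymphatic genes.

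Venous cells made up a larger share of the endothelium in the tomatidine library. They were 16 of 176 endothelial cells in control (9.09%, 5.29 to 14.3%) and 45 of 277 in tomatidine (16.2%, 12.1 to 21.1%), a difference of 7.15 percentage points (Newcombe interval 0.696 to 13.05). Of all cells with 500 or more UMIs they were 0.101% of 15912 and 0.296% of 15183. Capillary cells were 87.5% and 74.0% of the endothelium but 0.968% and 1.35% of all cells, so they too were a larger share of the tomatidine library, and arterial cells were 2.27% (4 cells) and 7.22% (20 cells) of the endothelium. Among cells of 2000 to 10000 UMIs the venous shares came from 10 and 34 cells and differed by 11.7 points (1.91 to 20.4), and with the deepest control cell left out by 7.67 points (1.28 to 13.5). How many venous cells each mouse gave, and how the dissected tissue was composed, was not measured, so the diet and the difference between the 2 pools cannot be told apart.

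Venous cells were then compared with capillary cells of the same library. Because vessel class was assigned from RNA, these differences describe the classes and are not tested. Among the 10 genes farthest above capillary cells were the chemokine receptor Ackr1, the interleukin-1 receptor Il1r1, the inflammation-induced genes Lcn2, Ch25h and Ptgs2, and the prostaglandin D synthase Ptgds. Of 5563 genes with at least 100 UMIs over venous and capillary cells together in each library, 80 (1.44%) were 2-fold or more higher in venous cells in both libraries and 152 (2.73%) were 2-fold or more lower in both, counted without the genes of the rule. Because the minimum applied to the sum of both classes, a gene could enter through the UMIs of 1 class alone. Most of the lower genes named here entered through capillary UMIs alone. Lcn2, Ch25h and Ackr1 entered through venous UMIs alone, the class where they were high. All 80 higher genes and 131 of the lower ones had counting intervals clear of 0 in both libraries. The median log2 ratio over all genes was -0.09 in control and -0.07 in tomatidine.

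Lcn2, a secreted protein that binds bacterial iron carriers and is induced in inflamed brain vessels, had the largest ratio (gene at chr2:32384633-32388252 in mm10). It stood at 1074 CPM (summed counts scaled to a total of 1000000 UMIs) in control and 521 CPM in tomatidine venous cells, against 5.63 and 8.40 CPM in capillary cells, and at 0 UMIs in the arterial cells of both libraries. The log2 ratios were 7.57 (6.70 to 8.60) in control and 5.96 (5.24 to 6.75) in tomatidine, and 11 of 16 and 27 of 45 venous cells held it. Ch25h, the enzyme that makes hydroxylated cholesterol (chr19:34473778-34475164), had log2 ratios of 6.17 and 5.63, from 127 and 101 venous UMIs. Ackr1 (chr1:173331886-173333750) had ratios of 5.33 (4.80 to 5.89) and 5.07 (4.53 to 5.63), from 135 and 111 UMIs. For all 3 genes each library's interval lay far from 0, and the values without the deepest control cell were 7.40, 5.92 and 5.28.

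Ptgs2, the inducible cyclooxygenase (chr1:150100031-150108227), and Il1r1, the signalling receptor for interleukin-1 (chr1:40225080-40317257), followed. Ptgs2 stood at 348 and 475 CPM in venous cells against 23.6 and 32.3 CPM in capillary cells, with log2 ratios of 3.89 and 3.88. Il1r1 had ratios of 3.82 in control and 3.18 in tomatidine, and was found in 10 of 16 and 37 of 45 venous cells. Tmem176a, an ion channel protein of immune cells, had ratios of 3.48 and 3.15, and Tmem252, a membrane protein, of 2.98 and 2.94. Myof, a membrane repair protein that keeps the VEGF receptor at the cell surface, had ratios of 2.89 and 3.56. Eln, the elastin of vessel walls, had ratios of 2.73 and 3.01, but arterial cells stood higher still, at 1059 and 676 CPM against 244 and 313 CPM in venous cells.

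Ptgds, the lipocalin-type prostaglandin D synthase that fibroblasts of the brain's coverings and oligodendrocytes make in quantity, met the same rule but rested on few cells. Its log2 ratio in control was 4.47 with all 16 cells and 1.14 without the deepest one. It turned to -0.74 when the study's cell filters, without its doublet removal, were added and to -1.30 among cells of 2000 to 10000 UMIs. In tomatidine the ratio was 3.11 with all 45 cells and 2.41 without the deepest one. Fibroblast-list RNA moved with it, at 2525 CPM in control venous cells and 992 CPM without the deepest cell, and the part of that RNA in the Ptgds values was not tested further.

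**Figure D2:**
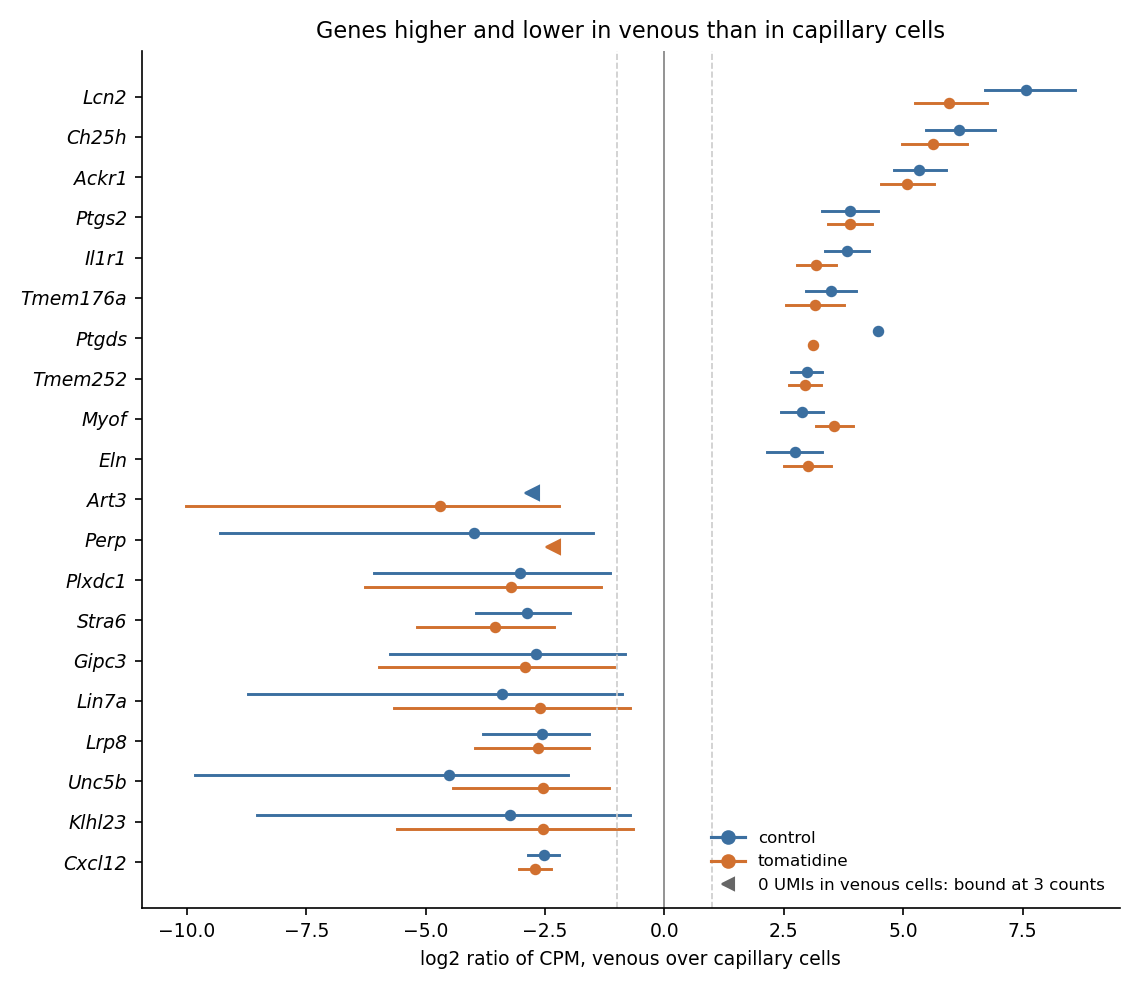
Log2 ratios of CPM in venous over capillary cells (horizontal axis) for the 10 higher and 10 lower genes named by the rule, with 95% counting intervals, in blue for control and orange for tomatidine. The 2 libraries give similar ratios for most genes, from about 7.57 and 5.96 for Lcn2 down to 2.73 and 3.01 for Eln, and triangles mark lower bounds in size for genes with 0 UMIs in venous cells.

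The RefSeq promoters (250 bases before to 50 after the start, GRCm38.p6) of the 10 higher genes were searched on both strands for 5 motifs. Promoters were found for 9 of the 10. TTGCNNAA, the core bound by C/EBP factors, occurred in 4 of the 9 (Lcn2, Ch25h, Ptgs2 and Il1r1) and in 12.2% of 27025 gene symbols. An NF-kB motif, GGG and TTCC with any 3 bases between them, occurred in 2 of 9 against 6.31%, and its narrower form, in which the last of those 3 bases is T and which lies within the first, in 1 of 9 against 1.89%. TTCNNNGAA, bound by STAT factors, occurred in none of 9 against 9.55%, and the AP-1 site TGACTCA in 1 of 9 against 5.95%. The stretches with the C/EBP letters are shown for 3 genes, chosen after the match was seen, on the strand of the gene, with the motif or its reverse complement in capitals. A match shows that these letters are present and not that a factor binds there. Distances are counted from the RefSeq start, which for Lcn2 and Ch25h differs from the start of the GENCODE gene given above, and the Lcn2 stretch lies inside that gene's span.
Lcn2, 216 to 209 bases before the start, chr2:32387922-32387981, minus strand: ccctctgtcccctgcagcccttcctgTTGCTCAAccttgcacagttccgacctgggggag
Ch25h, 112 to 105 bases before the start, chr19:34475227-34475286, minus strand: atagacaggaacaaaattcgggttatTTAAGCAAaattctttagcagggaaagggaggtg
Ptgs2, 69 to 62 bases before the start, chr1:150099936-150099995, plus strand: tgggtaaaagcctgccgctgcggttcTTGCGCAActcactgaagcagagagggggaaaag
Cebpd, which encodes C/EBP delta, had log2 ratios in venous over capillary cells of 1.27 (0.86 to 1.65) in control and 1.36 (0.94 to 1.76) in tomatidine. Without the deepest tomatidine cell its ratio there was 0.90, under the 2-fold limit. Whether Cebpd bears on the genes with the motif was not tested.

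Of the 10 genes named as lower in venous cells, most had only a few venous UMIs. Cxcl12, the chemokine that signals through CXCR4 and a member of the capillary list, had the most, with 82 and 77 in venous against 5333 and 5917 in capillary cells, and log2 ratios of -2.52 (-2.85 to -2.21) and -2.70 (-3.05 to -2.38). Stra6, the receptor that takes up retinol, had ratios of -2.87 and -3.55, and Lrp8, the receptor for reelin and apolipoprotein E, of -2.57 and -2.64. Unc5b, a netrin receptor of sprouting and arterial endothelium, had 1 and 4 venous UMIs against 260 and 275 capillary ones, with ratios of -4.52 (-9.83 to -2.03) and -2.54 (-4.43 to -1.17). Plxdc1, Gipc3, Lin7a and Klhl23 had 1 or 2 UMIs in the venous cells of each library. Art3 had 0 UMIs in control venous cells and was at least 6.88-fold lower than in capillary cells, taking 3 counts over the group as the floor, and 1 UMI in tomatidine, with a ratio of -4.71 (-10.02 to -2.22). Perp, a desmosomal protein, had 1 UMI in control and 0 in tomatidine, where it was at least 5.03-fold lower.

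**Figure D3:**
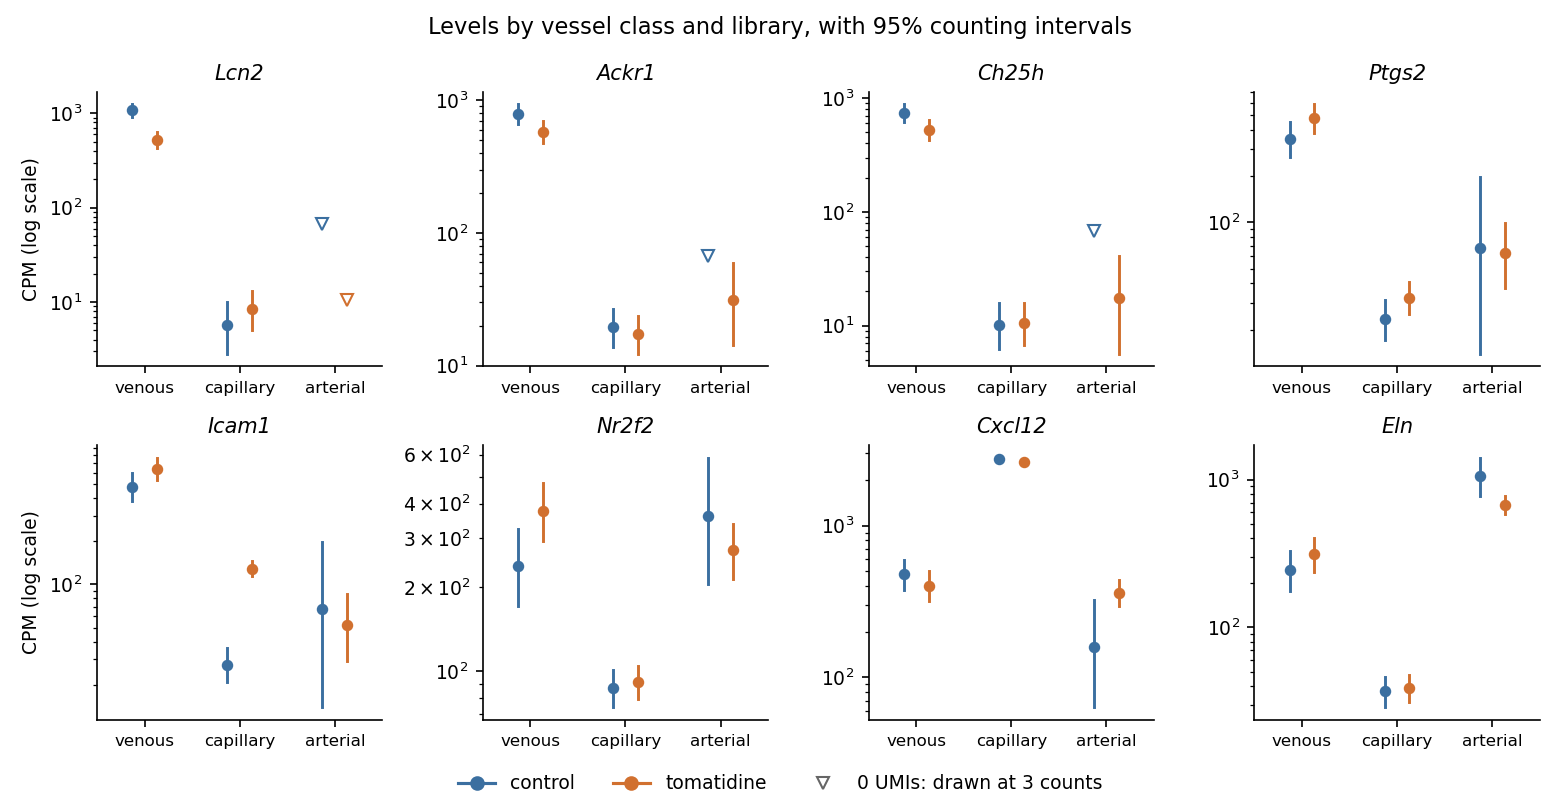
CPM (vertical axes, log scale, each panel with its own range) of 8 genes in venous, capillary and arterial cells, with 95% counting intervals, in blue for control and orange for tomatidine; open triangles stand at 3 counts for classes with 0 UMIs. Lcn2, Ackr1, Ch25h, Ptgs2 and Icam1 were highest in venous cells, Cxcl12 in capillary cells and Eln in arterial cells, whereas Nr2f2 overlapped between venous and arterial cells.

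Read by function, genes of venous identity and of inflammatory signalling stood above capillary cells, genes of the capillary and mural lists stood below, and the medians of the barrier lists lay near that of all genes. Of the 12 venous identity genes measured, 9 were 2-fold or more higher in both libraries and none lower, against 1.44% of all genes, with medians of 2.50 in control and 2.41 in tomatidine. They included the semaphorin and VEGF co-receptor Nrp2 (2.72 and 2.55), the lysosomal protease Ctsc (2.29 and 2.28) and the venous ephrin receptor Ephb4 (1.46 and 1.73). Emcn, an endothelial sialomucin often listed as venous, was not among them, at -0.57 and -0.49. The list was drawn up with earlier results of these data known, so its direction is not independent evidence. Its members Lcn2 and Ackr1 also reached the minimum through venous UMIs alone.

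Of the 12 genes of NF-kB and inflammatory signalling, 7 were 2-fold or more higher and none lower, against 1.44% of all genes, with medians of 1.35 and 1.37. This list, too, was drawn up with earlier results known and holds genes already named above. Of these, Ch25h reached the minimum through venous UMIs alone. Beside Ch25h and Ptgs2 the 7 genes were the interleukin-6 receptor genes Il6ra (1.63 and 1.93) and Il6st (1.43 and 1.69), the TNF receptor Tnfrsf1a (1.67 and 1.56), the early response gene Ier3 (1.75 and 1.37) and Cebpd. The subunit genes Nfkb1 (0.35 and -0.12) and Rela (0.28 and 0.03) stood near 0, and Stat3, the factor that carries interleukin-6 signals, at 1.05 and 0.83. Among 11 genes of leukocyte adhesion only Icam1 passed the fold upward, with log2 ratios of 4.12 in control and 2.31 in tomatidine, and Mcam passed it downward, at -2.89 (-5.18 to -1.33) and -2.12 (-3.75 to -0.88) from 3 and 5 venous UMIs. The list medians were 0.10 and 0.04, and over all genes 1.44% were higher and 2.73% lower by 2-fold in both libraries.

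Of 9 genes of clotting control 2 were 2-fold or more higher in both libraries and none lower, where 1.44% of all genes were higher and 2.73% lower, a background that applies to each list in this paragraph. Thbd, the thrombomodulin that switches thrombin to its anticoagulant role, had ratios of 1.25 and 1.14, and Entpd1, which breaks down extracellular ATP and ADP, of 1.13 and 1.76. Of 3 complement genes 1 passed the fold, C4b at 1.73 and 1.34, and of 26 interferon response genes Ifitm2 (1.56 and 1.02) and Ifitm3 (1.34 and 1.22) were higher while Rsad2 (-2.06 and -2.74, from 3 and 2 UMIs) and Irf7 (-1.02 and -1.19) were lower. Of 10 MHC class I genes 1 passed the fold in both libraries, H2-Q7 at 1.23 and 1.30; its relatives are near in sequence, so which family member the probes counted is uncertain. Leaving out the deepest cell of the library ended the call for H2-Q7 (0.57 in control), Ifitm2 (0.98 in tomatidine) and Irf7 (-0.26 in control). As a mean over cells C4b stood at 213 and 205 CPM in venous cells. Capillary cells stood at 150 and 156 CPM by that measure, so C4b was under the 2-fold limit. The control median of the class I list was 0.72 with all cells and 0.03 without the deepest one.

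The barrier lists showed few differences. Over all genes 1.44% were 2-fold or more higher and 2.73% lower in both libraries, a background that applies to each list in this paragraph. Of 16 transporters Abca1, the cholesterol exporter, was higher (1.85 and 1.41) and Lrp8 lower, and Slc2a1, the glucose transporter of the barrier, stood at 0.67 (0.58 to 0.77) and 0.64 (0.54 to 0.73), under the 2-fold limit. Of 12 junction genes only Jup, which encodes plakoglobin, passed the fold, at -1.33 and -1.70, and none of 10 genes of caveolae and transcytosis did. None of 7 genes of VEGF and angiopoietin signalling (5 receptor genes and the phosphatase genes Ptprb and Dusp1) and none of 14 BMP and TGF-beta genes passed it in both libraries. Of the 14 capillary genes 6 were 2-fold or more lower and none higher, against 2.73% of all genes, with medians of -0.85 (-1.58 without the deepest control cell) and -1.72; they included Slco1c1, a thyroid hormone transporter (-1.48 and -2.34), and Car4, the membrane carbonic anhydrase (-1.75 and -4.90). Of 13 arterial genes Eln was higher and 4 were lower, the Notch ligand Dll4, the connexin gene Gja4 (-0.84 in control without the deepest cell), Alpl and Unc5b. Of 11 basement membrane genes 1 was 2-fold or more lower in both libraries and none higher, and 9 had ratios below 0 in both, with medians of -0.38 and -0.55.

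RNA of other cells was present at different levels in the 2 classes. The mural list, whose cells wrap capillaries and arterioles, stood at 2507 and 2571 CPM in venous (1522 and 1984 CPM without the deepest cell of each library) and at 7879 and 8404 CPM in capillary cells, with 4 of 8 measured genes 2-fold or more lower in venous cells, against 2.73% of all genes. The fibroblast list stood at 2525 and 2320 CPM in venous against 503 and 338 CPM in capillary cells, with Igf2 as its top gene (218 and 270 venous UMIs), and at 992 and 998 CPM in venous cells without the deepest cell of each library. The part of this RNA in the vessel differences was not tested. With both deepest cells left out 56 of the 80 higher and 121 of the 152 lower genes still passed the fold in both libraries. In that setting 5442 genes met the minimum, against 5563.

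**Figure D4:**
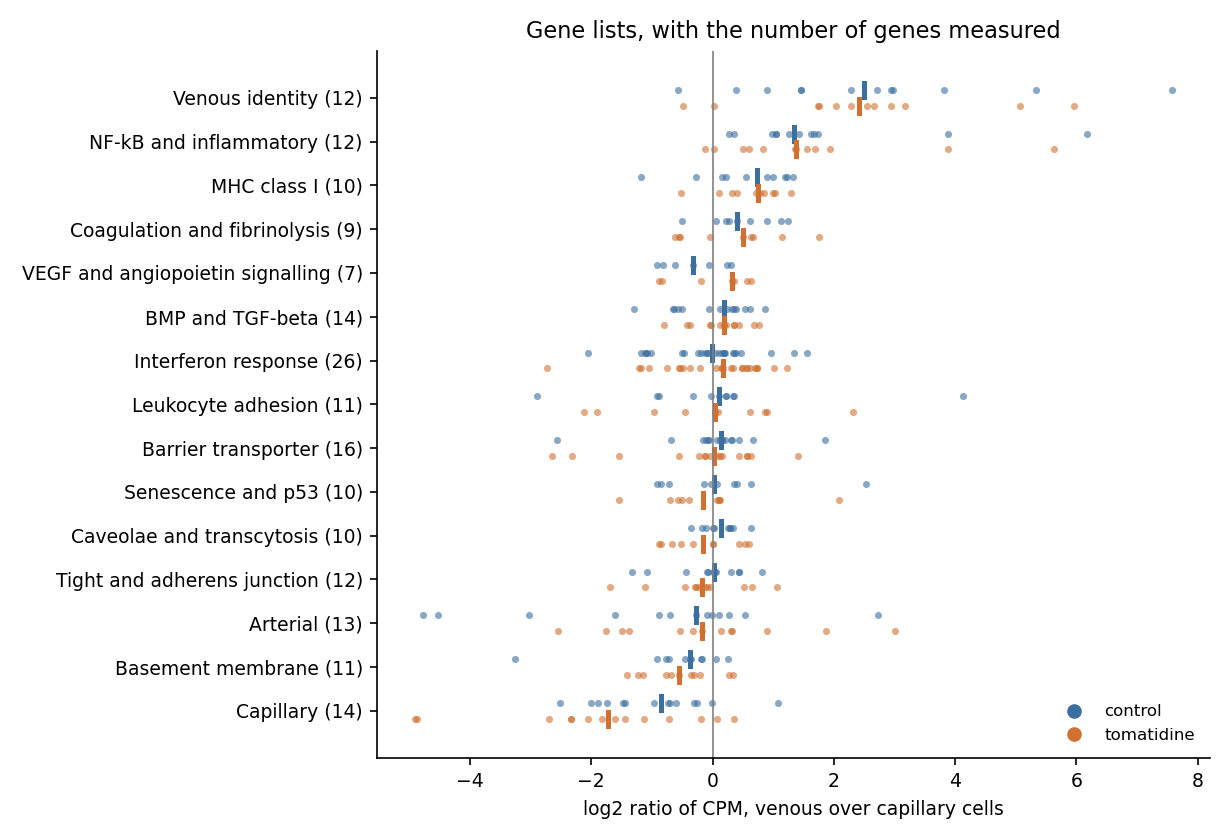
Log2 ratios of CPM in venous over capillary cells (horizontal axis) for each measured gene of 15 lists, with the number of genes in brackets, in blue for control and orange for tomatidine; vertical strokes are list medians, and genes with 0 UMIs in a class are not drawn. Venous identity (medians 2.50 and 2.41) and NF-kB genes (1.35 and 1.37) lie to the right, capillary genes (-0.85 and -1.72) to the left, and the barrier lists around 0.

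Between the libraries, few genes of the venous cells differed by 2-fold, and most of those were no longer called once the deepest cell of each library was left out. Of 1637 genes with at least 50 venous UMIs, 51 (3.12%) were 2-fold or more higher and 40 (2.44%) 2-fold or more lower in tomatidine, all with counting intervals clear of 0. The minimum was on the sum of both libraries, so a gene could enter through the library where it was high. Without the deepest control cell 25 of the 51 and 12 of the 40 still passed the fold, and without the deepest cell of each library 16 and 13. Fewer genes met the minimum of 50 UMIs there, at 1202 and 1055 against 1637. Genes lost to that minimum were not counted apart. The median log2 ratio over all genes was 0.00 to 2 decimals. With 1 library per diet none of these differences can be set against the spread between mice.

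Id1, an inhibitor of DNA binding that is switched on by BMP signals, had the most UMIs of the 8 higher genes named by the rule (gene at chr2:152736251-152737410). It was counted 114 times, in 14 of 16 control cells, and 308 times, in 37 of 45 tomatidine cells, which is 662 and 1606 CPM and a log2 ratio of 1.28 (0.96 to 1.60). The ratio was 1.24 without the deepest control cell, 0.98 (0.59 to 1.39) without the deepest cell of each library and 0.94 as a mean over cells, and 25.0% of the tomatidine UMIs lay in 1 cell. With the study's cell filters it was 0.71, among cells of 2000 to 10000 UMIs 0.68 and among cells with no UMI of other cell types 0.26. In capillary cells it was 0.04 (-0.05 to 0.13), from 1908 and 2271 UMIs. The thinned share of cells with Id1 did not differ in that direction, at 72.3% in control and 70.5% in tomatidine.

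Usp53, a tight junction protein of the ubiquitin protease family, kept its value without the deepest control cell and without the deepest cell of each library. Its 28 control UMIs lay in 9 cells and its 80 tomatidine UMIs in 28, with a log2 ratio of 1.36 (0.72 to 2.04), 1.41 without the deepest control cell and 1.47 without the deepest cell of each library, against 0.27 in capillary cells. Tecr, an enzyme of fatty acid elongation, stood at 1.29 with all cells and 0.92 without the deepest of each, and Zfp36, which degrades inflammatory messenger RNAs, at 1.13 and 0.70. The neuronal gene Ddn stood at 1.13 and 0.50. Mgp, the matrix Gla protein that binds BMPs, stood at 1.03 with all cells and 0.32 without the deepest of each, and at -0.77 as a mean over cells.

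Myelin genes were also among the higher ones. Mbp had 52 and 204 UMIs, of which 43.6% of the tomatidine UMIs lay in 1 cell, and its log2 ratio of 1.82 became -0.04 as a mean over cells. Mobp behaved alike, at 1.28 and -0.40. The whole oligodendrocyte list had all 7 genes detected in both libraries, and Mbp was its top gene in tomatidine venous cells. It stood at 1068 CPM in control (1640 without the deepest cell) and 2545 CPM in tomatidine venous cells. In capillary cells it stood at 2223 and 2882 CPM. The median log2 ratio of its 3 measured genes was 1.28 with all cells and -0.40 as a mean over cells.

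The 10 genes named as lower in tomatidine are known chiefly from other cell types. Cd74, the invariant chain of MHC class II, had 122 UMIs in control and 5 in tomatidine, with a log2 ratio of -4.76, but 95.9% of the control UMIs lay in the deepest cell, and without it the ratio was -0.91. Dcn, a fibroblast proteoglycan, went from -1.25 to 0.22 and Rgs5, a pericyte gene, from -1.10 to 0.35 when that cell was left out. Ttr, made by the choroid plexus, had 111 and 11 UMIs and a ratio of -3.49, or -2.70 without the deepest cell, and in capillary cells it was -6.65, from 7091 and 82 UMIs. The choroid list stood at 714 and 99.1 CPM in venous cells (422 in control without the deepest cell), with Aqp1 at 0 UMIs in both libraries and Folr1, Foxj1 and Ccdc153 at 0 in tomatidine.

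Of the 6 astrocyte-list genes with at least 50 UMIs, leaving out Aqp4, which helped choose the cells (-1.06), 5 had ratios below 0 and Slc4a4 stood at 0.79 (29 and 56 UMIs), or 0.40 without the deepest cell of each library. Slc1a2, the astrocyte glutamate transporter, had 330 and 159 UMIs and a log2 ratio of -1.21, or -1.64 without the deepest cell of each library. Gfap stood at -1.27 and -1.66 and the proteoglycan Bcan at -1.45 and -1.92. The 7 genes of the astrocyte list, all detected, stood at 5241 and 3129 CPM in venous cells and 6111 and 4750 CPM in capillary cells. Apod and Apoe, lipid carriers made by glia and fibroblasts, stood at -1.14 and -1.08, or -1.15 and -0.72 without the deepest of each. The deepest control cell held 59.5% of the control Apod UMIs. Apod stood at -0.60 without that cell alone and at -0.80 as a mean over cells. Hba-a2, a globin of red cells, stood at -1.33. The 6 genes of the blood list stood at 1219 and 579 CPM in venous cells, or at 1945 CPM in control without the deepest cell. In capillary cells they stood at 4230 and 2226 CPM. Cd3e was at 0 in each of these groups, Hba-a1 in control venous cells, and Ptprc and Pf4 in tomatidine venous cells. How much of these differences is RNA from outside the venous cells was not tested.

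**Figure D5:**
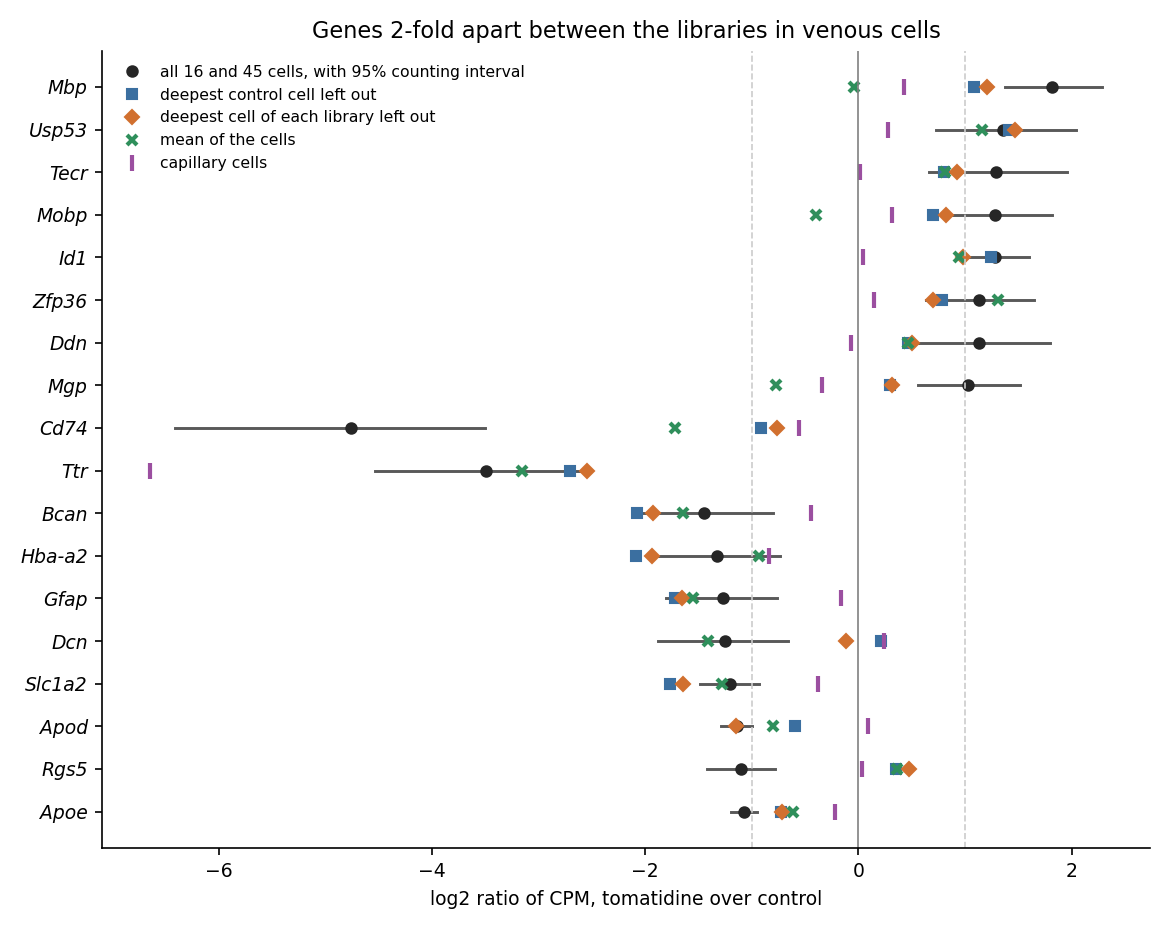
Log2 ratios of CPM in tomatidine over control (horizontal axis) for the 18 genes named by the rule in venous cells, with 95% counting intervals on the values from all cells (black), without the deepest control cell (blue squares), without the deepest cell of each library (orange diamonds), as a mean over cells (green crosses) and in capillary cells (purple strokes). In venous cells Usp53 lies between 1.16 and 1.47 throughout, whereas Cd74, Dcn and Rgs5 move toward or past 0 without the deepest control cell.

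Among the 16 lists of endothelial function, genes of MHC class I presentation stood highest in tomatidine once the deepest cells were left out. The median of the 7 measured was 0.35 with all cells, 0.91 without the deepest control cell and 0.93 without the deepest of each library, against 0.44 for the same genes in capillary cells and 0.00 for all genes; 1 of the 7 passed the 2-fold limit (background 3.12%). The 24 control UMIs of H2-Q7 lay in 9 cells and the 75 tomatidine UMIs in 28, with a log2 ratio of 1.49 (0.81 to 2.22) in venous and 1.42 (1.11 to 1.73) in capillary cells. H2-D1 stood at 0.85 (0.24 to 1.47) in venous and 0.81 (0.56 to 1.06) in capillary cells, H2-K1 at 0.49 (0.14 to 0.85) and 0.82 (0.67 to 0.98), and B2m, the shared light chain, at -0.14 (-0.58 to 0.30) and 0.44. Without the deepest cell of each library H2-D1 stood at 1.78 and H2-K1 at 1.08 in venous cells. The 7 interferon response genes had a median of 0.18 with all cells and 0.41 without the deepest of each, with Rnf213 highest at 1.12 (0.27 to 2.02) and Bst2 at 0.79.

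Without the deepest cell of each library the medians of the other 15 lists lay nearer to 0 than the class I median did, and the values below are from all cells unless stated. Of 13 BMP and TGF-beta genes Id1 and the inhibitory Smad7 (22 and 58 UMIs, log2 ratio 1.24, 0.51 to 2.02) passed the fold, against 3.12% of all genes, while Id3 (0.06), Id2 (-0.52), Bmpr2 (-0.52) and Klf2 (-0.08) did not, and the median was 0.05, or 0.07 without the deepest of each. Of 5 genes of VEGF and angiopoietin signalling none passed it, with a median of 0.34. The receptor genes Tie1 (0.90, 0.39 to 1.43), Kdr (0.69, 0.22 to 1.18) and Tek (0.17, -0.25 to 0.60) were measured together with the phosphatase genes Ptprb (0.29) and Dusp1 (0.34), and the median is the value of Dusp1. The 12 NF-kB and inflammatory genes had a median of -0.13, or -0.31 without the deepest of each, and none passed the fold; Nfkbia, the inhibitor that NF-kB itself switches on, was at -0.60 (-0.92 to -0.28) and Ptgs2 at 0.45 (-0.04 to 0.94). The 7 leukocyte adhesion genes had a median of 0.41 with all cells and 0.01 without the deepest of each. Icam1 stood at 0.41 (-0.00 to 0.83) in venous cells and at 2.22 (1.80 to 2.67) in capillary cells, where it had 54 and 292 UMIs.

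Of 13 venous identity genes Adgrg6, an adhesion receptor (12 and 47 UMIs, 1.82), and Mgp were higher and Lcn2 was lower by 2-fold, beside 3.12% higher and 2.44% lower over all genes, which is also the background for the lists that follow. Lcn2 had 185 and 100 UMIs and a log2 ratio of -1.04 (-1.41 to -0.68), which became -0.87 without the deepest control cell and 0.33 with the study's cell filters. The median of the list was 0.14, or 0.32 without the deepest of each. Of 9 capillary genes Car4 (44 and 6 UMIs) stood at -3.03, or -1.50 without the deepest of each, and the median moved from -0.67 to 0.00 when those cells were left out. Of 13 barrier transporters Slc40a1, the iron exporter ferroportin, passed the fold at -2.53 (52 and 10 UMIs), or -1.34 without the deepest of each, while Slc2a1 stood at -0.13 (-0.26 to -0.01) and the median at -0.13, or 0.14 without the deepest control cell and 0.072 without the deepest of each. The 10 junction genes had a median of -0.17 or 0.06 without the deepest of each, the 7 caveolae genes of -0.23, the 6 coagulation genes of -0.11 or 0.38 with Gas6 lowest at -0.97, and the 5 arterial genes of 0.36 or 0.01, and none of these passed the fold. The 5 basement membrane genes had a median of 0.01, and the 2 complement genes, Clu and C4b, stood at -0.29 and -0.58.

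Senescence genes were sparse in venous cells. Cdkn1a, which encodes the cell cycle inhibitor p21, was found in 5 of 16 control cells with 24 UMIs and in 8 of 45 tomatidine cells with 21 UMIs, a log2 ratio of -0.35 (-1.26 to 0.56). Of the 24 control UMIs 62.5% lay in 1 cell and 6 in the deepest cell, and the ratio was -0.69 without the deepest cell but 0.54 with the study's cell filters, which remove both, so its direction rests on single cells. Raw shares were 31.3% and 17.8%, but control cells with Cdkn1a were deeper than those without it, at medians of 4352 and 3355 UMIs, and in tomatidine at 5399.5 and 2917. Thinned to 1500 UMIs the shares were 10.0% and 9.49% in venous, 18.9% and 14.0% in capillary cells, and 1.33% and 0.872% in oligodendrocytes. Thinned to 1000 UMIs the venous shares were 11.1% and 6.69% (15 and 45 cells), and thinned to 3000 UMIs 22.4% and 12.9% (11 and 23 cells). The share was lower in tomatidine at each of these depths, by an amount that varied with the depth, and the exact intervals of the unthinned shares, 11.02 to 58.7% and 8.002 to 32.1%, overlapped. Cdkn2a, which encodes p16, had 0 UMIs in the 61 cells, which allows a share of up to 4.92% of cells with a UMI, and oligodendrocytes held it in 1.25% and 0.822% of cells. The 3 measured genes of the senescence list had a median of -0.25, or -0.50 without the deepest cell of each library, with Igfbp7, a secreted IGF binding protein, at -0.57 (-0.84 to -0.30) in venous and -0.21 in capillary cells, and Igfbp4 stood above capillary cells in both libraries, at 2.53 and 2.09.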

How the data were processed

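The deposited counts are UMIs per gene and cell in filtered matrices that the authors made with Cell Ranger (8.0.0 in the submitters' processing notes, 7.1.0 in the file headers, not reconciled here) against mm10, 1 matrix for each of the 2 libraries, with 279525565 and 259059908 UMIs. Venous values rest on 16 and 45 cells. Counts were summed over the cells of a class in each library and scaled to CPM (counts per 1000000 UMIs of those cells). Ratios carry exact conditional binomial intervals, shares Clopper-Pearson intervals and their differences Newcombe intervals (scipy 1.17.1, Python 3.11.15). The ratio intervals and the thinned shares were checked on simulated data and the Newcombe intervals against known values. The Clopper-Pearson intervals were not checked. The floor for 0 counts was 3 counts. Named genes were the 10 highest and 10 lowest with intervals clear of 0 (for the diets at least 100 UMIs, which 8 higher genes met), and for each list its most abundant members and extremes; further list members past 2-fold were named after their values were seen. The members and lists were chosen with earlier results of these data known. Of 335 listed genes 4 had no row. No doublet caller was run and no upper limit was set on genes or UMIs, so 5 venous cells with over 6000 genes were kept. Alternatives removed them or cells with RNA of other types. The study's cell filters here mean limits of 250 and 6000 genes, 0.8 for log10 genes per UMI and 20% mitochondrial UMIs. Its doublet removal and its stricter mitochondrial limit were not applied. Alternatives covered thresholds, cell depth, weighting and edgeR 4.0.16 TMM scaling (R 4.3.3).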

Additional observations from a re-analysis of the deposited data

Results flagged for a closer look

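In sums over all cells, the 6 genes below, none of which chose the cells, moved in opposite directions between the diets in venous and in capillary cells. They were picked for this pattern, so their number is not a result. With all cells their counting intervals were clear of 0 in both classes. Slc7a5 and Ctnnb1 are named only here. The difference between the classes was not tested, since each diet had 1 library. Log2 ratios of tomatidine over control are given for all venous cells, then for capillary cells, then for venous cells without the deepest cell of each library. Mgp stood at 1.03, -0.34 and 0.32 (-0.16 to 0.81). As a mean over venous cells Mgp stood at -0.77, the same direction as in capillary cells. Slc7a5, the large neutral amino acid transporter, stood at -0.93, 0.15 and -0.31. Car4 stood at -3.03, 0.13 and -1.50. Ctnnb1, which encodes beta-catenin, stood at -0.48, 0.18 and -0.09. Slc40a1 stood at -2.53, 0.22 and -1.34. Kdr stood at 0.69, -0.28 and 0.87.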

How the results depend on the processing

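Leaving out the deepest cells was chosen after seeing the data. The difference in venous share kept its direction under the 9 alternatives tried and moved farthest, to 21.4 points (-3.37 to 38.4), among cells with no UMI of other cell types, which leaves 2 control and 14 tomatidine cells. The counts of genes 2-fold higher and lower between the diets (51 and 40) were 6 and 6 among those cells, 27 and 11 among cells of 2000 to 10000 UMIs, 92 and 77 as means over cells, 376 and 241 with a minimum of 20 UMIs and 2 and 6 with 200. The counts higher and lower in venous than in capillary cells (80 and 152) were 0 and 3 with no UMI of other cell types, 20 and 67 in the depth window, 229 and 396 with a minimum of 20 UMIs and 40 and 89 with 200, and 25 higher with the study's cell filters. Fewer genes reach the minimum where cells are removed, so these counts cannot be compared directly. For the diets 59 genes were tested with no UMI of other cell types and 429 in the depth window, against 1637. A minimum of 20 UMIs left 5173 genes and a minimum of 200 left 137. In the same order, 20, 1012, 10579 and 2719 genes were tested between the vessel classes, against 5563. The study's cell filters left 2646 there. Log2 diet ratios changed sign as means over cells for Mbp (-0.037), Mobp (-0.40), Mgp (-0.77) and Rgs5 (0.37); with the study's filters for Mgp (-0.94), Dcn (0.12), Rgs5 (0.089) and Lcn2 (0.33); in the depth window for Ddn (-0.053), Mgp (-1.24), Gfap (0.43), Dcn (0.80) and Rgs5 (2.48); with no UMI of other types for Zfp36 (-0.84) and Hba-a2 (0.36); without the deepest control cell for Dcn (0.22) and Rgs5 (0.35), and without that of each library for Rgs5 (0.47). Control Ptgds over capillary cells became -0.74 and -1.30 with the study's filters and the depth window. The cause of these changes was not tested. No paired analysis was possible because each diet had 1 library and no replicate numbers.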
